A study of Caenorhabditis elegans with 6 samples.

Results

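The C-type lectin (*clec*) genes of *Caenorhabditis elegans* were described in total RNA from embryos of mixed ages and from larvae of the first stage (L1) after feeding. Members were genes whose symbol in the array's platform annotation is *clec* followed by a number, on a probe set that names 1 gene. This gave 220 genes of 17118 measured. Where a gene had several probe sets, the brightest on average across the 6 arrays stood for it. The choice used symbols and mean levels, not the difference between the stages.

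All samples were the wild-type strain N2, the standard laboratory strain, with 3 Affymetrix arrays per stage and no further genetic change or drug. L1 larvae (replicates 1, 2 and 3) came from eggs of bleached adults left to hatch for 24 h at 20 °C in M9 buffer and then fed for 3 h, at 10 worms per µL, on 10 mg/mL of the *Escherichia coli* strain HB101. Embryos (replicates A, B and C) came from bleached gravid adults grown on agar with the same bacteria, and these arrays had first been made for another series. Stage therefore cannot be told apart from the array set, nor from hatching in buffer or feeding. For the L1 samples 1 label, the source name, says embryos, whereas title, description and stage all say L1. The titles of the embryo arrays all carry the label XX and the same numeric tag, and differ in the replicate letter alone. Separate cultures are not stated for the replicates, so p-values rest on a spread between these samples that may be technical. Values are RMA expression values on the log2 scale. Across genes, which are not independent replicates, r was 0.9926 to 0.9968 between arrays of 1 stage and 0.7675 to 0.7842 between stages.

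C-type lectin-like domains are compact protein folds, and some of them bind sugars with the help of calcium. The family is large in nematodes, where many members are secreted, are made in the intestine and change in expression on infection with bacteria or fungi. Other members act outside immunity, for instance in the coat of the egg. Whole animals were sampled, so fewer cells of a type and less RNA per cell cannot be told apart in any value below.

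By the cutoff used here, most C-type lectin genes gave no signal above background in either stage. Background was taken as 5.43, the highest value on any array of 32 probe sets for transcripts of bacteria and yeast that the samples should lack (foreign control level). The stage mean lay above it in at least 1 stage for 78 members (35.5%), against 66.1% of all genes. Of these, 35 members were above it in both stages, 41 in L1 alone and 2 in embryos alone, while 142 members (64.5%) lay at or under it in both. Among all genes 51.4% lay above it in both stages, 8.43% in L1 alone, 6.27% in embryos alone and 33.9% in neither. On single arrays, 74 to 77 members lay above it in L1 and 34 to 41 in embryos. The cutoff is strict, as it is the highest control value. The 95th percentile of the control values was 4.95, and with that level more members lay above, as given at the end.

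Differences are L1 minus embryo and were called with limma at a Benjamini-Hochberg adjusted p under 0.05 over all 17118 genes. Of the 220 members, 88 (40.0%) passed in either direction, against 64.4% of all genes: 77 (35.0%) were higher in L1, against 33.2% of all genes, and 11 (5.00%) were lower, against 31.2%. Over all members, the share that was higher was thus near that of all genes, and the share that was lower was below it. Both shares include genes at or under foreign control level in both stages, 64.5% of the members against 33.9% of all genes. Of the 35 members above it in both stages, 22 rose and 7 fell. Of the 8805 genes above it in both, 3261 rose and 3933 fell. This difference was not tested. A total of 132 members did not pass. A difference of at least 1 log2 unit held for 43 members that rose (19.5%, against 17.0% of all genes) and for 8 that fell (3.64%, against 17.5%). Of these, 11 rises and 6 falls were of at least 4 log2 units. The median difference was 0.14 over the members and 0.05 over all genes. These counts depend on the scale. With each array centred on ribosomal protein genes, which moves the median of all genes from 0.05 to -0.28, 52 members were higher, against 23.1% of all genes, and 86 were lower, against 53.7%. The summed level of all members, as log2 of the sum, was 15.09 to 15.15 on L1 arrays and 15.28 to 15.46 on embryo arrays, slightly higher in embryos. Such a sum is carried by its brightest members and does not describe most of them. The 5 brightest had means of 11.03 (*clec-196*) to 13.65 (*clec-87*) in embryos and of 10.33 (*clec-1*) to 12.95 (*clec-63*) in L1.

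For 117 members (53.2%) no array of 1 stage reached into the range of the other, against 70.6% of all genes. In 103 of these (46.8%, against 37.8%) every L1 array lay above every embryo array, and in 14 (6.36%, against 32.8%) the embryo arrays were the higher ones. Replicates were close: the SD between arrays of a stage had a median of 0.09 over the members in L1 and in embryos, with a highest value of 0.36 in L1 and 0.37 in embryos.

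**Figure D1:**
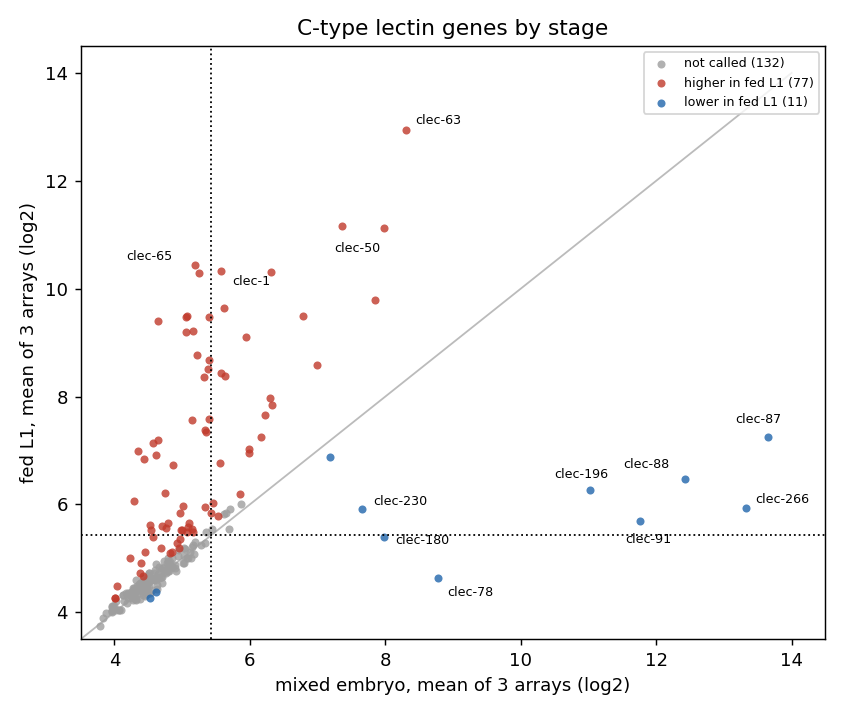
Mean log2 expression value of each of 220 C-type lectin genes in mixed embryos (horizontal axis) and fed L1 (vertical axis), 3 arrays per stage; colours give the limma call, dotted lines the highest foreign control value (5.43), and the grey line equal values. The 77 genes higher in L1 spread upward from background, while 8 of the 11 lower genes lie well below the line.

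Of the 11 C-type lectin genes that fell, 8 did so by at least 1 log2 unit, among them *clec-266*, which lies on the X chromosome. Its values were 5.81, 6.08 and 5.91 on the L1 arrays and 13.29, 13.24 and 13.47 on the embryo arrays. All embryo arrays were far above all L1 arrays, and the L1 values were just above foreign control level. The difference was -7.40 (SE 0.10, n = 3 per stage, limma adjusted p = 5.46e-11), rank 1 among the falls of all 17118 genes. Among the 50 largest falls of all genes 4 were C-type lectin genes, against 1 among the 50 largest rises.

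*clec-87* and *clec-88* encode core proteins of chondroitin proteoglycans, which carry long sugar chains and are known from the worm embryo. *clec-87* had values of 7.39, 7.35 and 6.999 in L1 and 13.81, 13.56 and 13.59 in embryos. Its difference was -6.41 (SE 0.12, adjusted p = 7.76e-11), and its other probe set gave -6.91. *clec-88* had 6.38, 6.43 and 6.60 in L1 against 12.57, 12.33 and 12.38 in embryos. It fell by 5.96 (SE 0.10, adjusted p = 6.23e-11). Its other probe set, which is not of a kind designed to match related sequences, gave -6.63. For both genes the stages lay several units apart on every array, and both probe sets placed the gene higher in embryos.

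*clec-91* read 5.72, 5.56 and 5.77 in L1 and 12.07, 11.39 and 11.81 in embryos, a difference of -6.07 (SE 0.16, adjusted p = 2.99e-10). *clec-196* had 6.001, 6.58 and 6.20 in L1 and 11.07, 10.90 and 11.12 in embryos, and fell by 4.77 (SE 0.14, adjusted p = 7.28e-10). Both genes were above foreign control level on every array of both stages.

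*clec-78* and *clec-180* were above foreign control level in embryos alone. *clec-78* had 4.59, 4.55 and 4.76 in L1 against 8.49, 9.08 and 8.76 in embryos, a difference of -4.14 (SE 0.14, adjusted p = 1.75e-09). This fall rests on 1 of its 3 probe sets, one that can match related sequences. The other 2 lay at foreign control level in both stages with differences of -0.01 and -0.07, and neither passed. *clec-180* fell by 2.59 (SE 0.11, adjusted p = 7.50e-09), from 8.10, 8.06 and 7.78 in embryos to 5.49, 5.37 and 5.32 in L1. *clec-230* fell by 1.74 (SE 0.14, adjusted p = 1.18e-06), from 7.38, 7.80 and 7.79 to 5.71, 6.09 and 5.97. In these 3 genes the stages did not overlap either. Where a gene lay at foreign control level in 1 stage, here and below, low RMA values are compressed. The size of the change is then uncertain and may be understated.

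The remaining 3 falls were small. *clec-12*, named after its values were seen, differed by -0.32 (SE 0.12, adjusted p = 0.0372), with overlapping arrays of 7.02, 6.91 and 6.68 in L1 and 7.28, 7.01 and 7.27 in embryos. *clec-21* (-0.26) and *clec-141* (-0.24) lay at foreign control level throughout. All 3 calls were lost on leaving out single arrays. For *clec-12* the adjusted p was 0.067 without L1 replicate 2, 0.148 without L1 replicate 3, 0.0862 without embryo replicate A and 0.118 without embryo replicate C, and it was 0.0523 with trend and robust settings. For *clec-21* it was 0.0961 without L1 replicate 1, 0.0649 without L1 replicate 2, 0.0691 without embryo replicate A and 0.0759 without embryo replicate B. The call of *clec-141* was lost without any of the arrays except L1 replicate 1, with adjusted p from 0.0766 to 0.13.

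**Figure D2:**
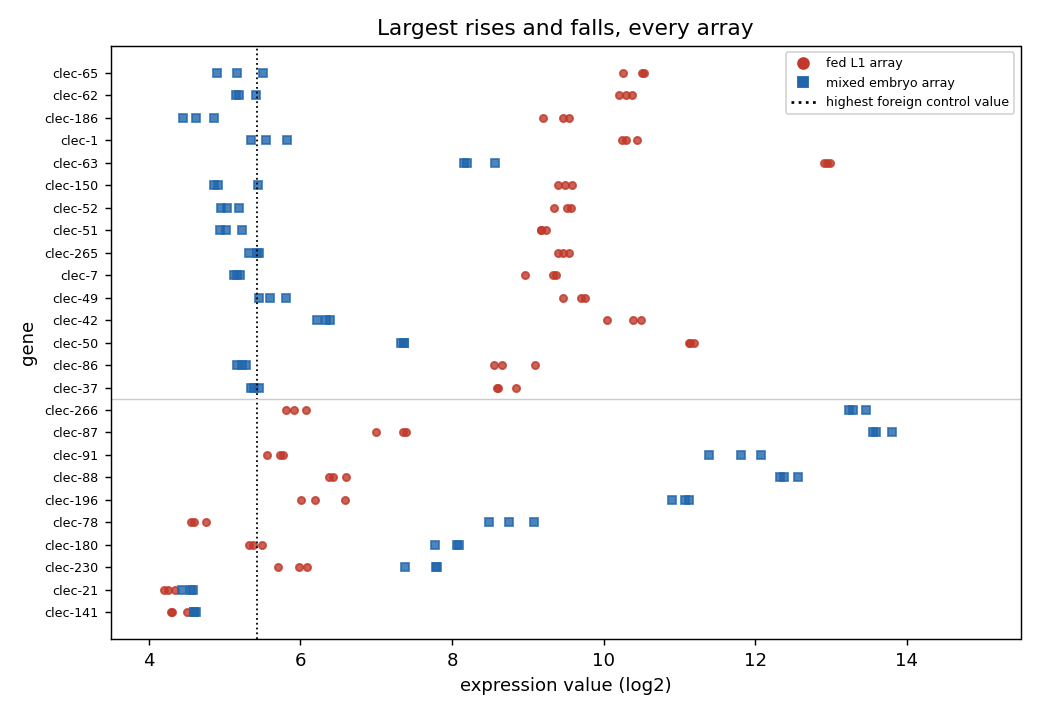
Log2 expression value (horizontal axis) on each of the 3 fed L1 arrays (red circles) and 3 mixed embryo arrays (blue squares) for the 15 largest rises, above the grey line, and the 10 falls whose arrays do not overlap, below it; the dotted line is the highest foreign control value. In all rises shown and in the first 8 falls, the gap between the stages exceeds the spread within each stage.

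Several members with large rises lie in a row of neighbouring genes on chromosome II. *clec-65* read 10.25, 10.53 and 10.51 in L1 and 5.16, 4.90 and 5.51 in embryos, and rose by 5.24 (SE 0.15, adjusted p = 5.83e-10). Its other probe set gave 6.06. *clec-62* rose by 5.04 (SE 0.10, adjusted p = 8.83e-11), from 5.41, 5.15 and 5.19 in embryos to 10.30, 10.21 and 10.37 in L1. The L1 arrays of both genes were high and close together, while the embryo arrays lay around foreign control level. *clec-63* was already well above that level in embryos, at 8.56, 8.15 and 8.20, and read 12.95, 12.91 and 12.99 in L1, a rise of 4.64 (SE 0.12, adjusted p = 2.65e-10).

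Rises of at least 4 log2 units were also found on chromosomes III, IV, V and X. *clec-186* had 9.54, 9.46 and 9.20 in L1 against 4.85, 4.62 and 4.45 in embryos (difference 4.76, SE 0.13, adjusted p = 3.86e-10). *clec-1* had 10.29, 10.45 and 10.24 against 5.35, 5.55 and 5.83 (difference 4.75, SE 0.13, adjusted p = 3.52e-10). *clec-150* had 9.49, 9.58 and 9.40 against 4.86, 4.92 and 5.44 (difference 4.42, SE 0.15, adjusted p = 1.44e-09). In each of these genes the L1 arrays lay far above all embryo arrays, and the second probe set of *clec-150* gave 4.14.

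*clec-51*, on chromosome IV like *clec-52*, read 9.18, 9.18 and 9.24 in L1 and 5.23, 4.93 and 5.02 in embryos, a rise of 4.14 (SE 0.10, adjusted p = 2.04e-10). *clec-265*, on the X chromosome like *clec-266*, moved the other way: it had 9.55, 9.40 and 9.46 in L1 and 5.32, 5.43 and 5.46 in embryos, and rose by 4.07 (SE 0.09, adjusted p = 1.33e-10). The family has 3 measured genes on that chromosome, and the third, *clec-86*, also rose. *clec-50* was above foreign control level in both stages, with 11.19, 11.14 and 11.12 in L1 and 7.37, 7.32 and 7.37 in embryos, a rise of 3.80 (SE 0.08, adjusted p = 1.25e-10). *clec-17* likewise read 11.15, 11.03 and 11.17 against 7.92, 8.01 and 7.99 and rose by 3.14 (SE 0.09, adjusted p = 4.23e-10). In both genes the arrays of a stage were close together, with an SD of at most 0.07. *clec-37* rose by 3.29 (SE 0.10, adjusted p = 7.30e-10), from 5.39, 5.45 and 5.34 to 8.59, 8.61 and 8.85. A further 39 members above foreign control level that the rule for named genes did not take rose by 0.26 (*clec-94*) to 3.17 (*clec-56*).

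Members whose products or transcripts are known from infection were mostly higher in L1. A list of 14 such genes, taken from general knowledge of the literature, had 12 members that rose and 0 that fell (all genes 33.2% and 31.2%), with a median of 2.70. Of the 12, 7 were above foreign control level in L1 alone and 5 in both stages. Across the whole family 40 of 41 members above it in L1 alone rose, and 22 of 35 above it in both. The members above it in L1 alone are picked by their L1 level. A difference between this list and other C-type lectin genes was not tested. Neither *clec-39*, which acts in the response to *Serratia marcescens* (-0.03), nor *clec-70* (0.06) passed, and both gave background values alone. With ribosomal protein centring 11 rose and 2 fell, and *clec-71*, at 0.41 on the deposited scale (SE 0.12, adjusted p = 0.00998), gave 0.08 with no call.

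*clec-49*, which like *clec-39* is linked to resistance to *Serratia*, read 9.70, 9.75 and 9.46 in L1 and 5.81, 5.45 and 5.60 in embryos, and rose by 4.02 (SE 0.12, adjusted p = 7.02e-10). *clec-52* had 9.35, 9.56 and 9.51 against 4.95, 5.03 and 5.19 and rose by 4.42 (SE 0.10, adjusted p = 1.73e-10). *clec-60*, a gene known to be induced by *Staphylococcus aureus*, was near background in both stages: it had 5.60, 5.26 and 5.71 in L1 and 4.52, 4.59 and 4.51 in embryos, a difference of 0.98 (SE 0.12, adjusted p = 2.96e-05). Its neighbour *clec-61* rose by 2.65 (SE 0.09, adjusted p = 1.81e-09), from 4.27, 4.40 and 4.38 to 7.06, 7.04 and 6.90. All of these genes had higher values on every L1 array than on any embryo array.

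*clec-67* and *clec-85* are known as targets of the p38 kinase PMK-1 in the intestine. *clec-67* read 8.47, 8.21 and 8.63 in L1 and 5.38, 5.65 and 5.71 in embryos (difference 2.86, SE 0.13, adjusted p = 1.25e-08). *clec-85* had 8.55, 8.40 and 8.21 against 5.79, 5.58 and 5.53 (difference 2.76, SE 0.11, adjusted p = 6.78e-09). In both genes the embryo mean was just above foreign control level. *clec-41* and *clec-42*, on chromosome V, are linked to infection with *Bacillus thuringiensis*. *clec-42* had 10.38, 10.04 and 10.50 in L1 and 6.33, 6.40 and 6.21 in embryos and rose by 3.99 (SE 0.12, adjusted p = 8.93e-10). *clec-41* rose by 2.04 with the widest error of any called member (SE 0.17, adjusted p = 1.49e-06), from 5.40, 5.53 and 5.09 to 7.44, 7.02 and 7.67. Of the remaining members of this list, *clec-7* rose by 4.06 (SE 0.12), *clec-86* by 3.55 (SE 0.13) and *clec-4* by 1.51 (SE 0.11), with a largest adjusted p of 5.55e-07.

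Position on the chromosomes was taken from the WBcel235 annotation for gene order only, since no build is named for the array design. It held all 220 members by gene ID, of 264 *clec* genes listed. Chromosome V carried 77 members, of which 33 rose and 1 fell, and chromosome II carried 47, of which 14 rose and 3 fell. On chromosome IV 18 of 45 rose and 3 fell, on I 7 of 31 rose and 3 fell, and on III 3 of 17 rose and 0 fell. The share that rose was 42.9% on V, 40.0% on IV, 29.8% on II, 22.6% on I and 17.6% on III, around the 33.2% of all genes, and differences between chromosomes were not tested. Of the members 18 are annotated as pseudogenes. All 18 gave background values alone, and 2 of them passed, *clec-201* at 0.78 and *clec-23* at 0.46.

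Neighbouring genes were joined into a row when at most 3 other coding genes or pseudogenes lay between them. This gave 16 rows with at least 3 measured members, 85 members in all. Neighbours are often similar in sequence, so their probe sets may share signal, and members of a row are not independent measurements. All 5 members of the row from *clec-62* to *clec-66* on chromosome II rose, by 1.95 to 5.24, with *clec-64* at 3.03 and *clec-66* at 1.95. In another row on that chromosome, from *clec-143* to *clec-61*, *clec-143*, *clec-60* and *clec-61* rose, by 0.55 to 2.65. The other members of it, *clec-58* (0.05) and *clec-59* (0.04), lay at foreign control level and did not pass.

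The row of 15 genes from *clec-40* to *clec-33* on chromosome V had 11 measured members, and all of them rose, by 0.46 (*clec-23*) to 3.29 (*clec-37*). Of these, 3 gave background values in L1 and in embryos. On the same chromosome all 5 members from *clec-57* to *clec-55* rose, by 0.27 to 3.17. On chromosome IV all 3 measured members from *clec-80* to *clec-85* rose, by 1.09 to 2.76. By contrast, 8 members from *clec-127* to *clec-134* on chromosome II differed by -0.20 to 0.21, and 0 passed limma, with 7 of them at background throughout.

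Within a single row the stages could favour different members. Of 12 measured genes from *clec-67* to *clec-78* on chromosome IV, 5 rose, 1 fell and 6 did not pass. The difference ran from 2.86 in *clec-67* and 2.71 in *clec-174* to -4.14 in *clec-78*, the last resting on 1 probe set as above. Of the 8 falls of at least 1 log2 unit, 6 were in genes with no other *clec* gene within the same distance. Of 74 such lone members in all, 21 rose (28.4%, near the 33.2% of all genes) and 8 fell (10.8%, against 31.2%). Of 95 members in rows of 3 or more *clec* genes, measured or not, 41 rose (43.2%) and 2 fell (2.11%). The difference between lone members and rows was not tested.

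**Figure D3:**
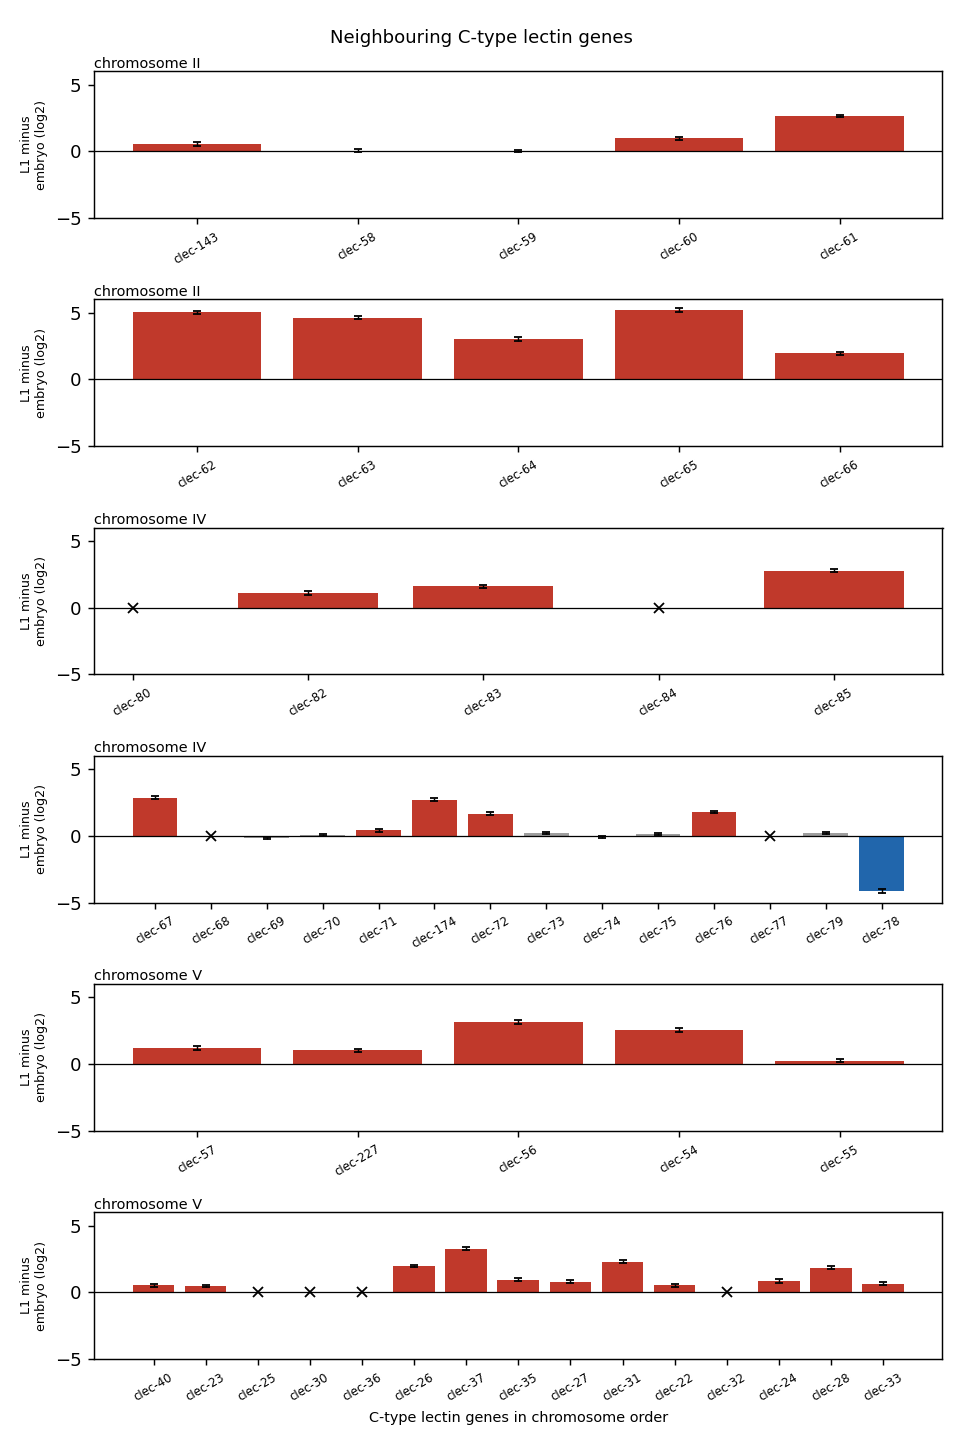
Log2 difference (fed L1 minus mixed embryo) of C-type lectin genes in 6 rows of neighbours, in chromosome order; bars are red for higher, blue for lower and grey for not called, error bars are limma's SE, and crosses mark genes with no probe set of their own here. Rows shown have at least 3 called members and 1 difference of at least 1. All measured members rose in the rows *clec-62* to *clec-66* and *clec-40* to *clec-33*. *clec-78* fell in a row where *clec-67* rose, but by only 1 of its 3 probe sets, one that can match related sequences.

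Several probe sets were present for 15 members, with 0 differences in sign among them. They lay over 1 log2 unit apart in 2 genes, *clec-78*, described above, and *clec-57*. The probe set used for *clec-57* gave 1.21 and the other gave 2.94, both higher in L1. For *clec-198*, at foreign control level by both probe sets, the one used gave 0.16 with no call and the other 1.12, and with the mean of both the gene passed (0.64, adjusted p = 0.000141). The probe set used was of a kind that can match related sequences (_s_at or _x_at) for 31 members, among them *clec-266*, *clec-87*, *clec-91*, *clec-88* and *clec-78*. With probe sets of the other kind alone, 63 of 193 members rose and 7 fell.

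**Figure D4:**
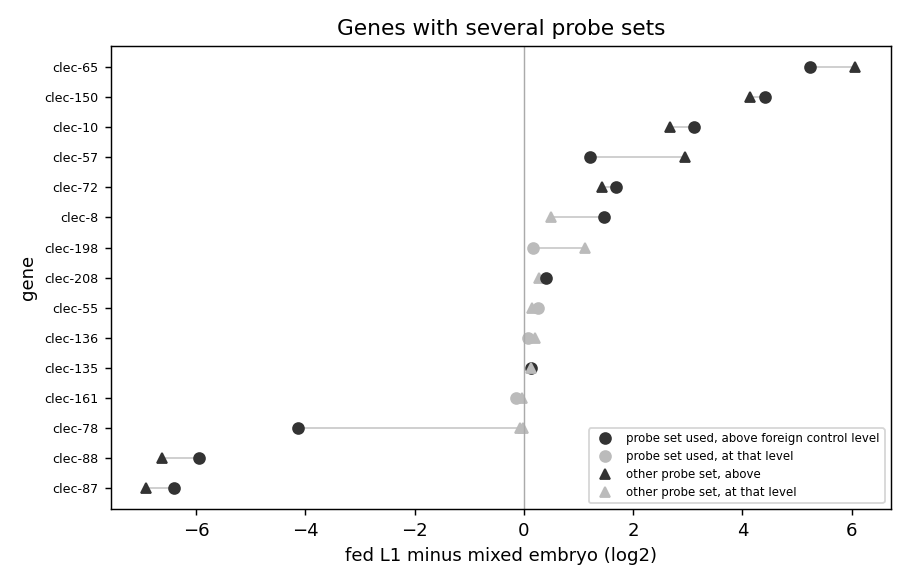
Log2 difference (fed L1 minus mixed embryo) for every probe set of the 15 C-type lectin genes that have several; circles mark the probe set used, triangles the others, and dark symbols those with a stage mean above foreign control level. Probe sets of a gene lie within 1 log2 unit except for *clec-78* and *clec-57*.

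Some members above foreign control level did not pass. *clec-135* read 5.99 to 6.02 in L1 and 5.84, 5.97 and 5.80 in embryos (difference 0.13, SE 0.09, adjusted p = 0.208). Its L1 arrays were all above its embryo arrays. *clec-133*, *clec-258* and *clec-125* differed by 0.21, 0.19 and 0.20, with adjusted p from 0.0955 to 0.2. *clec-258* passed without embryo replicate B (0.29, adjusted p = 0.0486). Just above foreign control level was *clec-149*, with 5.49 in L1 and 5.35 in embryos, and just under it *clec-139*, with 5.39 and 4.58. Of the 142 members with background values alone, 15 rose, by 0.23 to 0.82, 2 fell and 125 did not pass. Among all genes 5797 gave background values alone, of which 1037 rose and 370 fell. Between the stages, foreign control probe sets moved by -0.10 to 0.26 with a median of 0.06, so a small call there and an offset in background cannot be told apart.

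Most genes of 2 lists of immune signalling genes were higher in L1. The counts of this and the other lists below stand beside 33.2% of all genes higher and 31.2% lower, or 23.1% and 53.7% with ribosomal protein centring. The p38 pathway passes signals from the adaptor TIR-1 through the kinases SEK-1 and PMK-1 to the factor ATF-7. In a list of 11 measured genes of this pathway and of linked immune regulators, 10 rose and 0 fell, with a median of 0.98. One of them, *elt-2*, is also among the intestine markers below. The largest rise was in *fshr-1*, a receptor gene of immunity outside that chain, by 1.99 (SE 0.16). Of the genes of the chain, *tir-1* rose by 0.83, *pmk-1* by 0.63 and *sek-1* by 0.31, while *atf-7* differed by 0.06 and did not pass. With ribosomal protein centring 9 rose and 1 fell. All 8 genes of the BMP-like DBL-1 pathway, which sets body size and resistance to infection, rose with a median of 1.44, most in *sma-10* (3.24, SE 0.09).

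Genes of other secreted immune effectors and infection-response (*irg*) genes were also measured as 1 list. Among these 55 lysozyme, saposin-like, caenacin, *abf* and *irg* genes the median was 0.79: 40 rose, 5 fell and 10 did not pass. The 8 *irg* genes are named for a response to infection, not as secreted effectors, and all are among the 40. Ribosomal protein centring turned this to 29 rises and 13 falls. The largest rise was in the saposin-like gene *spp-23*, by 5.92 (SE 0.13), and the largest fall in *spp-13*, by 3.18 (SE 0.15). Of 10 *lys* lysozyme genes 9 rose, and all 8 *irg* genes did. Of 12 galectin genes, which encode another class of sugar-binding proteins, 10 rose and 0 fell, with a median of 2.02 and the largest rise in *lec-10* (3.60, SE 0.09). With ribosomal protein centring 10 of them rose and 1 fell. Of the galectin genes 0 gave background values alone.

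Genes of the eggshell and oocyte surface were mostly lower in L1. Of 17 measured, 15 fell and 0 rose, with a median of -1.38. *cpg-2*, which encodes a chondroitin proteoglycan of the eggshell, fell by 5.59 (SE 0.11), and *cbd-1*, which encodes a chitin-binding eggshell protein, fell by 4.26. Of 12 germline and oocyte markers 11 fell and 0 rose, with a median of -4.46, most in *mex-6* (-5.38, SE 0.18). Their summed level was 10.26 to 10.28 on L1 arrays and 14.24 to 14.44 on embryo arrays, as log2 of the sum, and *mex-6* and *nos-2* were at foreign control level in L1.

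Markers of several tissues moved between the stages beside the lectins. The median of 14 intestine markers was 1.71: 10 rose, 1 fell and 3 did not pass. Their summed level was 14.81 to 14.84 in L1 and 12.90 to 13.15 in embryos, and 0 of them gave background values alone. *mtl-2*, a metallothionein gene, rose most (3.88, SE 0.10), and *eps-8* fell by 0.82. Of 11 neuron markers 9 rose and 1 fell (summed level 14.54 to 14.57 in L1, 12.59 to 12.71 in embryos), led by *egl-3* (5.18, SE 0.10), with *unc-119* at -1.65. The markers *rgef-1* and *unc-31* gave background values alone.

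Of 8 body wall muscle markers 7 rose and 1 fell (14.30 to 14.37 in L1, 12.66 to 12.88 in embryos), with *unc-54* at 2.77 and *hlh-1* at -0.91. Of 12 epidermis markers 10 fell and 1 rose (11.94 to 12.10 in L1, 14.05 to 14.16 in embryos), with *noah-2* at -5.91 and *elt-3* at 0.35. The falls differed widely in size, with *lin-26* at -1.12, *let-413* at -1.04 and *ajm-1* at -0.31. The rise of *elt-3* was lost with median or ribosomal protein centring, and without L1 replicate 1, L1 replicate 3 or embryo replicate A. *bli-1* gave background values alone, and *dpy-7*, *fbn-1* and *rol-6* lay at foreign control level in L1. Of 10 pharynx markers 5 rose and 5 fell (12.76 to 12.85 in L1, 11.68 to 11.82 in embryos), with *phat-3* at 3.31 and *phat-2* at -2.30. The part of tissue makeup in the lectin differences was not tested.

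**Figure D5:**
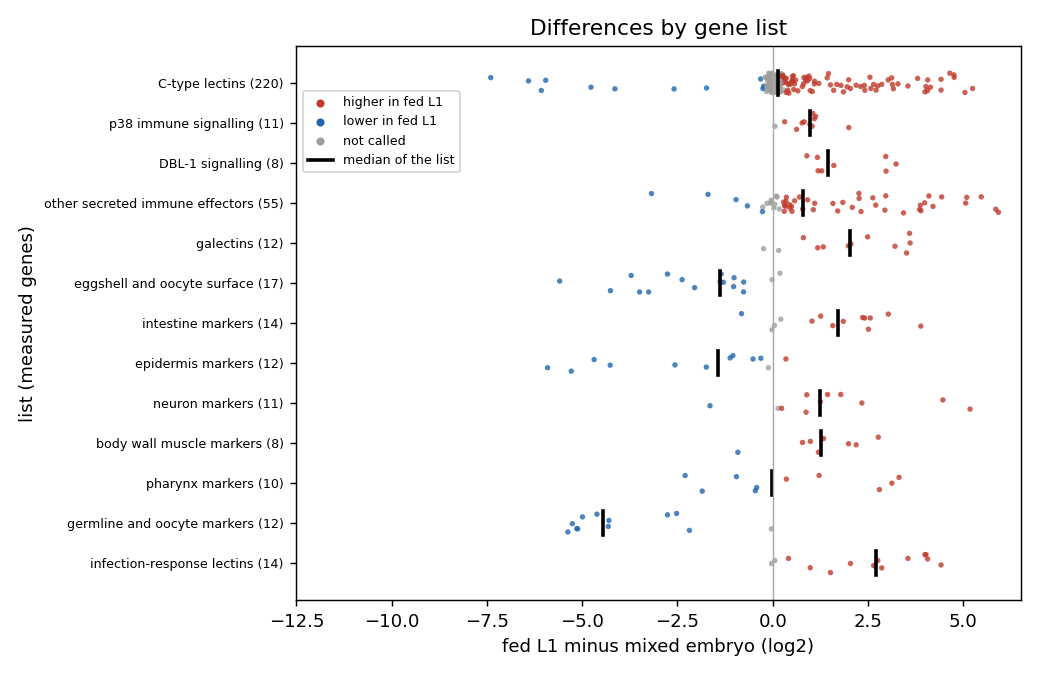
Log2 difference (fed L1 minus mixed embryo, horizontal axis) of each measured gene in 13 lists, with the number of genes in brackets; colours give the limma call and black bars the list median. The C-type lectins gather near 0 with a long tail of rises and a few large falls, while eggshell and germline genes lie on the falling side.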

How the data were processed

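Each probe set has 1 deposited log2 value per array, made with RMA according to the submitters' processing notes. The RMA version, and whether all 6 arrays were normalized together, are not given in the sources used here. RMA equalises distributions, which hides a change in total RNA. The number of arrays limits the precision.

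Of 22625 probe sets, 77 controls were left out. Of the rest, 20766 named 1 gene, 887 several and 895 none in the platform annotation, and the first kind gave 17118 genes. Groups came from sample titles. All genes were fitted together (limma 3.58.1 in R 4.3.3, eBayes without trend, 2-sided) with Benjamini-Hochberg adjustment, and each SE is the moderated one. In data simulated for this comparison, 26 of 50 genes changed by 0.5 log2 units were called and 45 of 50 changed by 1. Of 16918 genes left unchanged, 8 were called. The simulation left most of the 17118 genes unchanged, whereas 64.4% passed in the real data. The p cutoff that the adjustment sets differs with that share, so these rates do not carry over. No pair of arrays was identical.

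Members and lists were chosen with earlier results of these data known. Named members were the 15 largest rises and the largest falls without overlap between stages, the 5 of highest level in each stage, the 4 of highest level that did not pass, infection-list members above foreign control level, the member of largest SE, and those next to that level, 39 in all. Other lists gave their largest rise and fall. Members named beyond this, the neighbour distance and the rows drawn in the figure were chosen after the values were seen. The comparison of protein and promoter sequences was not run. Alternatives were other scalings, filters on dim genes, limma settings, probe set rules and leaving out each array.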

Additional observations from a re-analysis of the deposited data

Results flagged for a closer look

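Probe sets that name a C-type lectin gene together with another gene were left out of the comparison. Of 22 such probe sets, 9 had a stage mean above the foreign control level of 5.43, which is why they are given here, and which gene gave the signal was not tested. The values that follow are the mean of the higher stage. The probe set of *F56A4.2* and *clec-209* had 11.96 in L1, with a difference of 2.66 (L1 minus embryo). That of *clec-49* and *clec-48* had 9.85 in L1 (difference 4.53), that of *clec-13* and *clec-15* 9.15 (4.20), and that of *clec-69* and *clec-67* 8.19 (3.11). Smaller values were found for *W02D7.12* and *clec-218* (6.37, difference 1.42), for *clec-118* and *clec-144* (6.06, difference 0.42, while the other 2 probe sets of this pair, at background, gave -0.26 and -0.06 and did not pass), for *clec-14* and *clec-16* (5.94, difference 0.92) and for *clec-205* and *clec-204* (5.64, difference 1.23). One was higher in embryos, that of *B0365.9* and *clec-225*, with 6.34 and a difference of -1.50. All 9 passed limma over all probe sets, with a largest adjusted p of 0.00357. Among all genes 64.4% passed. Taking probe sets by their higher stage favours such calls, so the 9 calls are a description only.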

How the results depend on the processing

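The number of C-type lectin genes that rose was 52 to 89 under all alternatives, against 77. The number that fell was 86 with ribosomal protein centring and 7 of 193 when probe sets that can match related sequences were left out, against 11, and 9195 of all genes fell with ribosomal protein centring, against 5339. The share of higher genes among all genes called went from 51.6% to 30.1% with it. The median difference, 0.14, was 0.071 after another quantile normalization, 0.067 with median centring, -0.19 with ribosomal protein centring, 0.46 once the dimmest 25% of genes were dropped, and 1.32 once genes at foreign control level were dropped, where 73 members did not overlap. The last 2 rest on fewer genes, and the cause of the others was not tested. Over all genes the same 2 filters gave medians of 0.016 and -0.048. The last filter also keeps members above the level in 1 stage alone, which was L1 for 41 of the 78 kept and embryos for 2. Its median of 1.32 and its 73 members without overlap partly reflect that choice, so no conclusion is drawn from them. Leaving out single arrays gave 71 to 79 rises, 8 to 10 falls and a median of 0.13 to 0.16, and for all genes 5326 to 5522 rises and 5084 to 5365 falls. It left 126 to 138 members without overlap, against 117. Fewer arrays can only make overlap rarer, so this is no sign of a clearer separation. Members above foreign control level numbered 76 to 78 with single arrays left out, and 108 with the level at the 95th percentile of the foreign controls, against 78. No named member changed direction with a call. Repeats covered the members named by the rule, called or not, and also *clec-12*, *clec-57* and *clec-198*, named after their values were seen. In these repeats the outcome of the test stayed as it was 593 times, while a call was lost 17 times and gained 3 times. The lost calls include those of *clec-12*, and the gained calls those of *clec-198*. No paired analysis was possible because the labels number L1 arrays 1 to 3 and embryo arrays A to C. Signal near foreign control level limits 142 members.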
